A study of Mus musculus with 7 samples.

Results

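S100 proteins are small calcium-binding proteins of vertebrates that bind calcium through paired EF-hand loops and then dock onto target proteins. Most of their genes lie side by side on mouse chromosome 3, at the edge of the epidermal differentiation complex, the gene cluster that also encodes loricrin, involucrin, the small proline-rich proteins and the late cornified envelope proteins. In skin, S100a10 and S100a11 are known as components of the outer epidermis, and S100a3 is known from the hair cuticle. S100a8 and S100a9 are known as secreted alarm signals of wounded or inflamed epidermis, and S100a4 and S100a6 as genes of motile cells. The members described here are the probe sets of a mouse expression array whose only annotated gene was one of 10 listed S100 genes. That rule found 11 of 22626 probe sets, covering 9 of the 10 genes. The probe set of S100a11 was annotated with 3 genes, S100a11, S100a11-ps and Gm12854, and was not used.

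The cells were mouse primary keratinocytes, the epithelial cells of the epidermis, transiently transfected with small interfering RNA (siRNA) oligonucleotides and collected 48 h later. There were 5 arrays of cells that received siRNA against Trp63 (replicates 1, 2, 3, 4 and 7) and 2 arrays of cells that received a non-specific control siRNA (replicates 5 and 6). Trp63 encodes p63, a transcription factor of stratified epithelia, and the question was what its silencing does to these cells. The labels do not give the strain or age of the mice or say whether each array had a culture of its own. The p-values therefore rest on the spread between these arrays alone, which may be technical. Every array carried transfected siRNA, and no untransfected cells were part of the comparison.

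The label of each group matched its level of Trp63. Its brightest probe set read 541, 519, 457, 504 and 492 on the Trp63 siRNA arrays, against 1447 and 1683 on the control siRNA arrays, a 3.05-fold fall. The other Trp63 probe sets were dimmer and fell less. Their means were 163 with Trp63 siRNA against 235 with control siRNA (1.40-fold), and 139 against 209 (1.45-fold). Values are the authors' deposited intensities on a linear scale. Differences were tested with limma on log2(intensity + 16), and p-values were adjusted by Benjamini-Hochberg across the 22626 probe sets, with calls made under 0.05. Fold changes are on that scale. The keratinocyte keratin Krt14 read 14825 ± 302 (SD, n = 5) with Trp63 siRNA and 17063 ± 145 (SD, n = 2) with control siRNA. Of 11 measured keratinocyte markers 1 rose and 9 fell, and of 9 melanocyte markers none passed. Of 10 endothelial, muscle and fat markers 2 rose, Fabp4 by 2.01 and Acta1 by 1.04 on the log2 scale. Over all 12393 genes, by their brightest probe set, 8.03% rose and 8.56% fell. The melanocyte count and the endothelial, muscle and fat count therefore say little about their lists. Array medians lay between 207 and 214. The arrays were not alike in other ways: the mean log2 level of 9 melanocyte markers was 9.47 and 9.51 on Trp63 siRNA replicates 1 and 2, 8.998, 8.95 and 8.94 on Trp63 siRNA replicates 3, 4 and 7, 9.39 on control replicate 5 and 8.95 on control replicate 6. The log2 ratio of 3' to 5' signal of the beta-actin control probe sets was 0.19 to 0.32 with Trp63 siRNA against 0.38 to 0.44 with control siRNA, and that of Gapdh was -0.14 to -0.09 against -0.03 to -0.02 (exact two-sided permutation test over 21 splits, p = 0.0476 for each, the smallest these arrays allow). The part of that RNA difference in the results below was not tested.

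S100 genes that passed the test were higher in silenced cells. S100a4, S100a16, S100a6 and S100a3 rose, by 2.64-fold, 1.30-fold, 1.16-fold and 1.21-fold. The other 7 probe sets did not pass and no member fell. So 4 of 11 probe sets (36.4%) passed, all as higher, where 7.83% of all probe sets passed as higher and 8.16% as lower. All Trp63 siRNA arrays lay above both controls for 5 of the 11 probe sets, where 14.2% of all probe sets did so, and below both controls for 1, where 22.4% did so. The median log2 difference of the 11 was 0.22, against -0.03 over all probe sets.

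Promoter sequences are given for 4 members, to set called and uncalled members side by side, each with 1 RefSeq start: S100a4, with the largest rise, S100a6, with a small rise at high signal, and S100a8 and S100a9, the calprotectin genes, which did not pass. Each sequence is the RefSeq window in build GRCm38.p6 from 250 bases before to 50 bases after the annotated start, on the gene's strand, with the letters TATAAA in capitals where they occur. 
S100a4, chr3:90603520-90603819, plus strand: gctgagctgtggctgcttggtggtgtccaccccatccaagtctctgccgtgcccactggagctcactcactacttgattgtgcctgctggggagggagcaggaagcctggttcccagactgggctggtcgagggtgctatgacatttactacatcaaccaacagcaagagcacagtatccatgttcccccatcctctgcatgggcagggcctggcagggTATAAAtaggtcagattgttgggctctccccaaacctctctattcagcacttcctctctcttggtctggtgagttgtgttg
S100a6, chr3:90612644-90612943, plus strand: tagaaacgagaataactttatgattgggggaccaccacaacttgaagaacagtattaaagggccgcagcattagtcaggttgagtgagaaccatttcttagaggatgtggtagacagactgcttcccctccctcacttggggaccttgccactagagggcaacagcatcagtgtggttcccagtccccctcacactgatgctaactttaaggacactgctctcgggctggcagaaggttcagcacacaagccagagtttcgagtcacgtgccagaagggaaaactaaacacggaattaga
S100a8, chr3:90668821-90669120, plus strand: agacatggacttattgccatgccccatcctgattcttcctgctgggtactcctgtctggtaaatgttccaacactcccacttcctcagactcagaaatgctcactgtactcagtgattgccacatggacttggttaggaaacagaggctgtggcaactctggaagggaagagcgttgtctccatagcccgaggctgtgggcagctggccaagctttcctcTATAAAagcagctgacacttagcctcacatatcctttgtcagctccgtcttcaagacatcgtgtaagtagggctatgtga
S100a9, chr3:90695672-90695971, minus strand: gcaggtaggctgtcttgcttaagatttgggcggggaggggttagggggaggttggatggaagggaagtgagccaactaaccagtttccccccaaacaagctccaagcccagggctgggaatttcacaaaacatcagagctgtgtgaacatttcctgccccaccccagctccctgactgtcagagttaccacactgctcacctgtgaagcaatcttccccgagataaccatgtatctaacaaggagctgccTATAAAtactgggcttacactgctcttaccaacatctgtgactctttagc

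RefSeq windows were matched for 9 of the 10 listed genes, 13 windows in all, since S100a3 and S100a16 have several annotated starts. The letters TATAAA, the core of the TATA box, were searched on both strands and occurred in 4 of the 13 windows, against 13.6% of 32851 windows of the same length over the genome. They began 31 bases before the start of S100a4, 30 bases before that of S100a8 and 52 bases before 1 of the annotated starts of S100a3. In S100a9 they began at the annotated start itself. The AP-1 letters TGANTCA occurred in 2 of the 13 windows, 1 of S100a16 and that of S100a11, against 7.81% of all windows. No TGANTCA match overlapped a TATAAA match. The p53-family site, which p63 also binds, was searched on both strands as a pair of spaced quartets. In its loose form, with only the C and G of each quartet fixed, it occurred in 10 of the 13 windows, where 70.2% of all windows held it. In its strict form, with CATG as each quartet, it occurred in 0 of 13 windows, against 0.712% of all windows. The strict form is so rare that 13 windows could hardly have held it, and the loose form lies in most windows. Neither search can therefore tell whether these promoters carry the site. A match describes the letters in these windows only.

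**Figure D1:**
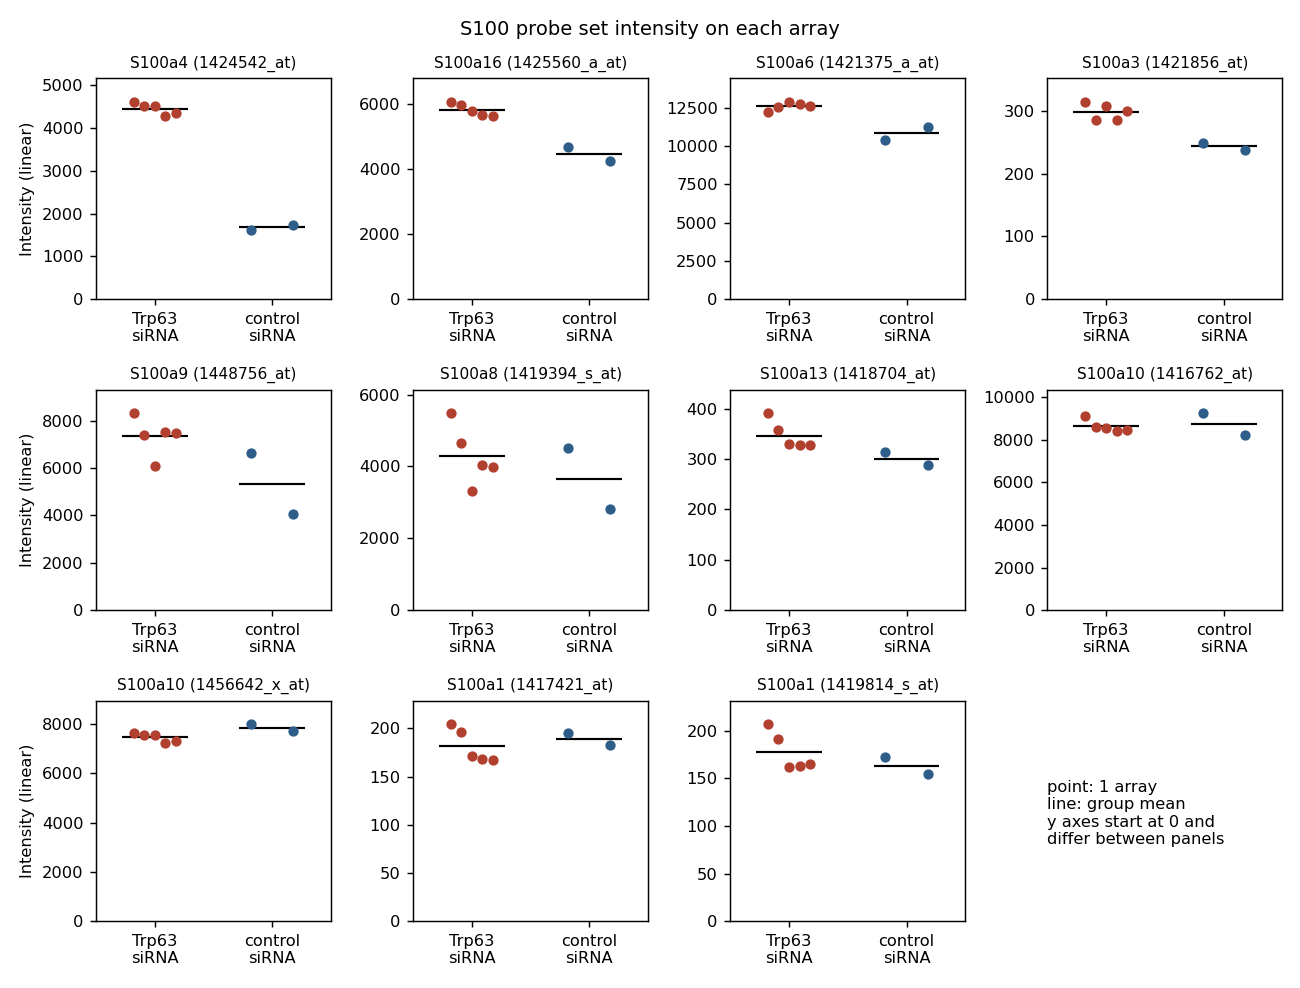
Intensity (linear, y axes from 0) of each S100 probe set on each array, with 5 Trp63 siRNA arrays at the left and 2 control siRNA arrays at the right of each panel; points are arrays and lines are group means. S100a4 separates the groups most clearly, with 4283 to 4608 against 1616 and 1740.

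S100a4 encodes a protein of motile cells that binds non-muscle myosin. It read 4608, 4510, 4526, 4283 and 4356 with Trp63 siRNA, against 1616 and 1740 with control siRNA. The groups were far apart and each was tight: the means were 4457 ± 133 (SD, n = 5) and 1678 ± 87.8 (SD, n = 2). The log2 difference was 1.40 (SE 0.049, 95% interval 1.29 to 1.51, limma adjusted p = 9.1e-07), and the interval lay above the intervals of all other members. Among the 3 arrays with a high melanocyte level it was 1.49, and among the other 4 it was 1.33. S100a4 is also used as a fibroblast marker, so the fibroblast list is given beside it. Of 13 measured fibroblast markers 2 rose, Col5a2 (log2 difference 0.79, SE 0.11, limma adjusted p = 0.00145) and Col1a1 (0.44, SE 0.071, limma adjusted p = 0.0032), and none fell. Over all 12393 genes, by their brightest probe set, 8.03% rose and 8.56% fell, so with 13 genes this count says little about the list. The mean log2 level of the list was 7.84 to 7.97 on the Trp63 siRNA arrays against 7.58 to 7.80 on the controls, and the brightest member, Vim, differed by 0.24 (SE 0.23, limma adjusted p = 0.507). The fibroblast genes Pdgfra, Dcn and Lum were dim, at 138, 156 and 89.0 with Trp63 siRNA against 139, 153 and 88.2 with control siRNA. These genes were chosen after their values were seen and do not stand for the list. The list median was 0.12, against -0.04 over all genes. The part of fibroblasts in the S100a4 result was not tested. In bulk cells, a change in the number of cells of a type and a change in RNA per cell cannot be told apart.

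S100a16, a widely expressed member of the family, read 6069, 5966, 5802, 5673 and 5645 with Trp63 siRNA, against 4695 and 4258 with control siRNA. All silenced arrays lay above both controls, with a log2 difference of 0.38 (SE 0.047, 95% interval 0.27 to 0.49, limma adjusted p = 0.00082). S100a6, or calcyclin, a gene of proliferating and migrating cells, read 12198, 12569, 12872, 12734 and 12642 with Trp63 siRNA, against 10411 and 11265 with control siRNA. The rise was small, at a log2 difference of 0.22 (SE 0.033, 95% interval 0.14 to 0.29, limma adjusted p = 0.00228), and the groups did not overlap. The signal of S100a6 was close to the top of the arrays, whose highest values were 16436 to 17165.

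S100a3, a cysteine-rich member best known from the hair cuticle, was much dimmer. It read 314, 285, 307, 286 and 300 with Trp63 siRNA, against 249 and 238 with control siRNA. The groups did not overlap and the log2 difference was 0.28 (SE 0.064, 95% interval 0.13 to 0.42, limma adjusted p = 0.0184). This call rested on both controls being present: leaving out control replicate 5 gave 0.0734 as the limma adjusted p, and leaving out control replicate 6 gave 0.146. Within the melanocyte subsets, each with a single control that stands for its group, S100a3 differed by 0.25 at high level and by 0.30 at low level.

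**Figure D2:**
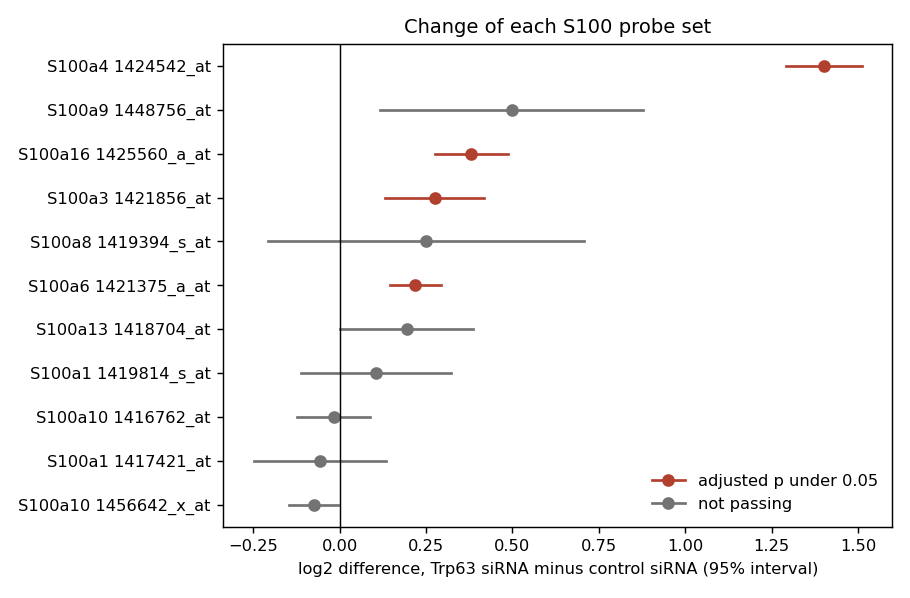
Log2 difference between Trp63 siRNA and control siRNA for each of the 11 S100 probe sets, with the 95% interval from limma; red marks those with an adjusted p under 0.05. S100a4 stands at 1.40, and the other called members lie between 0.22 and 0.38.

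S100a8 and S100a9, which form calprotectin, a zinc-chelating antimicrobial complex of neutrophils and activated keratinocytes, varied most within the groups. S100a9 read 8312, 7409, 6084, 7537 and 7494 with Trp63 siRNA, against 6644 and 4048 with control siRNA. Of the 5 silenced arrays 4 lay above both controls, but the controls themselves were far apart. The log2 difference was 0.50 (SE 0.17, 95% interval 0.12 to 0.88, limma adjusted p = 0.0792). Leaving out control replicate 5 gave 0.85, and leaving out control replicate 6 gave 0.14. S100a9 passed with the melanocyte level (limma adjusted p = 0.0222) or the bacterial spike level (limma adjusted p = 0.0302) as a covariate. S100a8 read 5481, 4657, 3316, 4040 and 3998 with Trp63 siRNA, against 4503 and 2818 with control siRNA. The groups overlapped, and its log2 difference of 0.25 (SE 0.20, 95% interval -0.21 to 0.71, limma adjusted p = 0.442) turned to -0.087 without control replicate 6. Against the single control of each melanocyte subset, S100a9 differed by 0.24 at high level and by 0.79 at low level. In the same subsets S100a8 differed by 0.17 and 0.42. With 1 control in each, these subsets hold no spread between controls and cannot serve as tests. The S100a8 probe set carries the suffix that Affymetrix gives to probe sets shared by several transcripts, as does the second S100a1 probe set described below. The second S100a10 probe set carries the suffix for probe sets that may cross-hybridise.

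Replicate 3 was the lowest silenced array for S100a8 and S100a9, and replicate 6 the lower control. Loricrin (Lor), a cornified envelope gene of the same gene cluster, chosen for display after its values were seen, had the same lowest arrays at its brightest probe set: 4345, 4035, 2728, 3875 and 3808 with Trp63 siRNA against 2586 and 1577 with control siRNA. Neutrophils and macrophages also express S100a8 and S100a9. Of 15 measured markers of these cells, 2 rose (Cd14, log2 difference 0.52, SE 0.081, limma adjusted p = 0.00271, and Cd68, 0.60, SE 0.15, limma adjusted p = 0.024), 1 fell (Tyrobp, -0.20, SE 0.045, limma adjusted p = 0.0178) and 12 did not pass, a share near the 16.6% of all genes that passed. The mean log2 level of the list was 7.41 to 7.52 with Trp63 siRNA against 7.41 to 7.49 with control siRNA. The brightest of them, Csf1r, read 438 against 455. The leukocyte genes Ptprc and Itgam read 74.9 and 90.8 with Trp63 siRNA against 75.8 and 90.7 with control siRNA, near the lowest values on the arrays (58.5 to 60.7). Ptprc and Itgam were chosen after their values were seen and do not stand for the list. The part of neutrophils and macrophages in the S100a8 and S100a9 values was not tested.

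S100a10, also called p11, forms a tetramer with annexin A2 and does not depend on calcium for binding. Its brighter probe set read 9102, 8596, 8562, 8390 and 8473 with Trp63 siRNA, against 9241 and 8236 with control siRNA. All silenced arrays lay between the controls, and the log2 difference was -0.02 (SE 0.047, 95% interval -0.12 to 0.09, limma adjusted p = 0.835). The second probe set read 7250 to 7643 with Trp63 siRNA, against 7986 and 7729 with control siRNA, so every silenced array lay below both controls. That difference of -0.07 did not pass (SE 0.031, 95% interval -0.15 to -0.004, limma adjusted p = 0.144). For either probe set the interval holds no change larger than 0.15 on the log2 scale.

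S100a13, which assists the release of fibroblast growth factor 1 and interleukin 1 alpha, read 391, 357, 330, 327 and 328 with Trp63 siRNA, against 314 and 288 with control siRNA. The groups did not overlap, but the log2 difference of 0.19 did not pass (SE 0.085, 95% interval 0.002 to 0.39, limma adjusted p = 0.159). Among silenced arrays, replicates 1 and 2, where the melanocyte level was high, read highest, and with that level as a covariate the difference was 0.19 (limma adjusted p = 0.0441). S100a1, known from heart muscle, was dim, with probe set means of 181 and 178 with Trp63 siRNA against 189 and 163 with control siRNA. Its probe sets differed by -0.06 (95% interval -0.25 to 0.13, limma adjusted p = 0.681) and 0.11 (-0.11 to 0.32, limma adjusted p = 0.495), with opposite signs. In both, replicates 1 and 2 were the highest silenced arrays, at 204 and 196 in the first, and control replicate 5 was above control replicate 6. The RefSeq starts of S100a1 and S100a13 are head to head on opposite strands, and their 300-base windows share 204 bases.

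The family members outside the list and the S100-fused proteins, large proteins of the granular layer that begin with an S100 domain, gave 8 measured genes. Of these 2 rose, 1 fell and 5 did not pass, where 16.6% of 12393 genes passed by their brightest probe set, 8.03% as higher and 8.56% as lower, and the list median was -0.04, as it was over all genes. S100a14 lies between S100a13 and S100a16 on the chromosome. It read 4924, 5018, 5372, 5174 and 5135 with Trp63 siRNA, against 4139 and 4124 with control siRNA (log2 difference 0.31, SE 0.040, limma adjusted p = 0.00111). Filaggrin (Flg), which bundles keratin filaments, was 1.98-fold higher at 2781 ± 158 (SD, n = 5) against 1414 ± 330 (SD, n = 2), with limma adjusted p = 0.000554. Hornerin (Hrnr) was 2.03-fold lower at 101 ± 13.6 (SD, n = 5) against 227 ± 77.6 (SD, n = 2), with limma adjusted p = 0.00321. S100a5, between S100a4 and S100a6, was dim in both groups, at 115 with Trp63 siRNA against 120 with control siRNA, and did not pass (log2 difference -0.06, limma adjusted p = 0.281). S100b, used as a marker of melanocytes and nerve sheath cells, read 115 against 117.

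In chromosomal order, the 10 measured S100 genes from S100a1 to S100a9 have no other measured gene between them. Of these 5 rose and 5 did not pass, where 8.03% of all genes rose and 8.56% fell. The rises sat in the run S100a14, S100a16, S100a3 and S100a4 and, past S100a5, in S100a6. S100a10 lies at the far end of the epidermal differentiation complex, beyond 29 other measured genes, of which 16 rose and 2 fell. These include the S100-fused genes Flg, which rose, Hrnr, which fell, Rptn and Tchh. The list of other complex genes had 23 measured members, all of them among those 29. In this list 15 rose and 1 fell, against the same shares over all genes, and the median was 0.68 against -0.04 over all genes. Leaving out control replicate 6 cut the rises to 3. The cornified envelope genes Lce1h, Sprr2f and Lce1b rose by 1.69, 1.72 and 1.94 on the log2 scale (SE 0.20, 0.22 and 0.31), and involucrin (Ivl), an early envelope protein, fell by 1.49 (SE 0.18), each with a limma adjusted p of 0.00313 or lower. Close copies within the Lce and Sprr families may cross-hybridise.

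**Figure D3:**
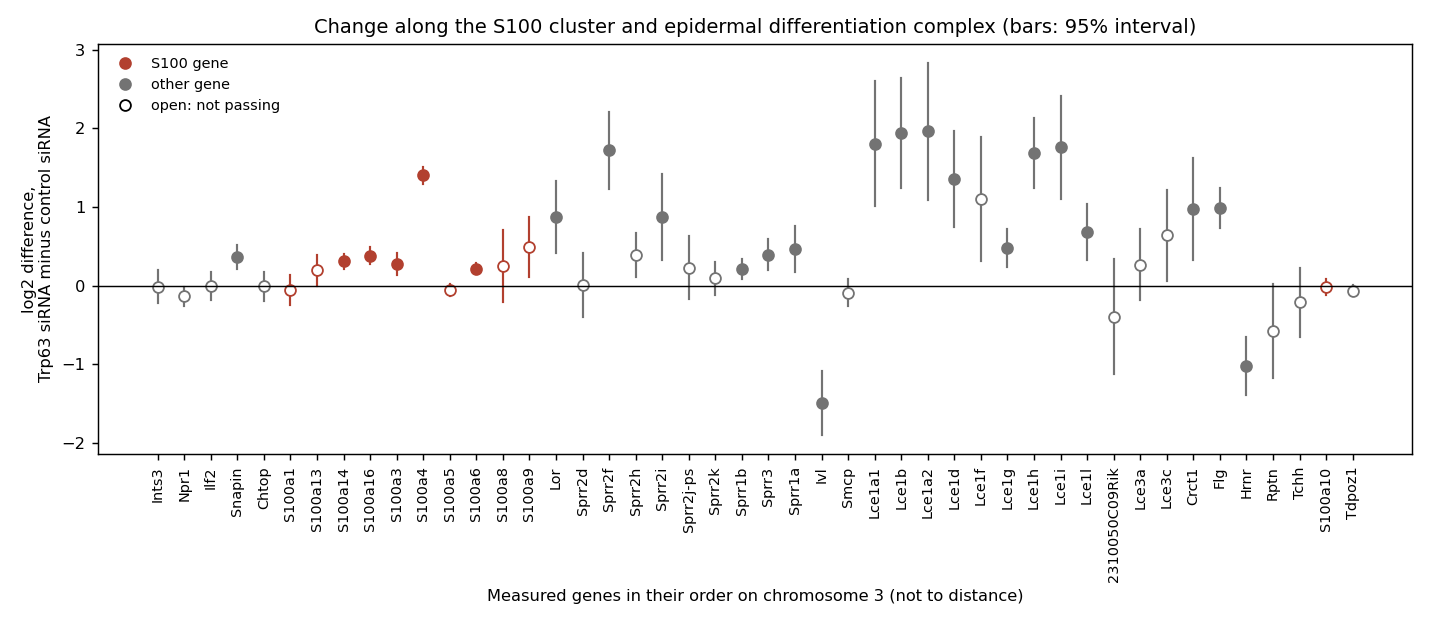
Log2 difference between Trp63 siRNA and control siRNA (points) with 95% intervals (bars) for measured genes in their order on chromosome 3, from the neighbours of S100a1 to those of S100a10; filled points passed and red points are S100 genes. S100a4 (1.40) exceeds its S100 neighbours, while Lce1 genes reach 1.96 and Ivl lies at -1.49.

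Receptors and binding partners of S100 proteins passed about as often as genes in general. Among 21 measured genes there were 2 rises, 1 fall and 18 that did not pass, where 16.6% of all genes passed. The list median was -0.05, against -0.04 over all genes. Il1a, whose product travels with S100a13, read 985, 1356, 1739, 1571 and 1588 with Trp63 siRNA, against 479 and 330 with control siRNA (log2 difference 1.80, SE 0.21, limma adjusted p = 0.000648). Anxa6, an annexin, rose 1.30-fold at its brightest probe set (limma adjusted p = 0.0207), and at another (1.23-fold, limma adjusted p = 0.0037), while the remaining one differed by -0.08 (limma adjusted p = 0.499). The plasminogen gene Plg was called lower at a dim level, 108 against 124 (limma adjusted p = 0.0454). No gene of this list was called lower when any single array other than Trp63 siRNA replicate 1 was left out. The S100 receptor genes Ager (142 against 150) and Tlr4 (108 against 111) were dim in both groups and did not pass (limma adjusted p = 0.356 and 0.685). Bsg, a receptor for S100a9, read 4122 with Trp63 siRNA against 4031 with control siRNA (log2 difference 0.03, SE 0.049, limma adjusted p = 0.702).

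Whether a member changed unequally to its partner was asked from the log2 ratio of their probe sets within each array, over 6 pairs. The ratio of S100a4 to Myh9, the heavy chain of the myosin it binds, averaged 0.57 ± 0.21 (SD, n = 5) with Trp63 siRNA and -0.60 ± 0.036 (SD, n = 2) with control siRNA. The ratio of S100a13 to Il1a was lower by 1.60 on the log2 scale in silenced cells and that of S100a13 to Fgf1 was higher by 0.27. These 3 pairs reached the smallest p that the 21 splits allow (exact two-sided permutation test, p = 0.0476), which became 0.0952 after adjustment over the 6 pairs. An adjusted p under 0.05 would have needed all 6 pairs at that smallest p, so no pair could pass by itself. The ratios with S100a4 and Il1a also carry the differences already given for these genes. Fgf1 was dim, at 181 with Trp63 siRNA against 192 with control siRNA, and did not pass (limma adjusted p = 0.506). The ratio of S100a13 to Fgf1 also carries the S100a13 difference of 0.19, which did not pass. The ratio of S100a8 to S100a9 was -0.60, -0.67, -0.87, -0.90 and -0.90 with Trp63 siRNA, against -0.56 and -0.52 with control siRNA. All silenced arrays were lower, by 0.25 on average, yet the test gave p = 0.0952 (exact permutation test, adjusted p = 0.114). The ratio of S100a6 to its binding partner Cacybp was higher by 0.53 (exact permutation test, adjusted p = 0.114), with silenced replicate 1 highest at 3.41 against 2.53 to 2.83 in the other silenced arrays. On replicate 1 Cacybp read 1134, against 1754 to 2208 on the other silenced arrays, while S100a6 had its lowest silenced value, 12198. S100a10 over Anxa2 differed by 0.06 (exact permutation test, adjusted p = 0.429). Anxa2 itself read 10922 to 11404 with Trp63 siRNA against 11545 and 11954 with control siRNA (log2 difference -0.08, SE 0.026, limma adjusted p = 0.0729).

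**Figure D4:**
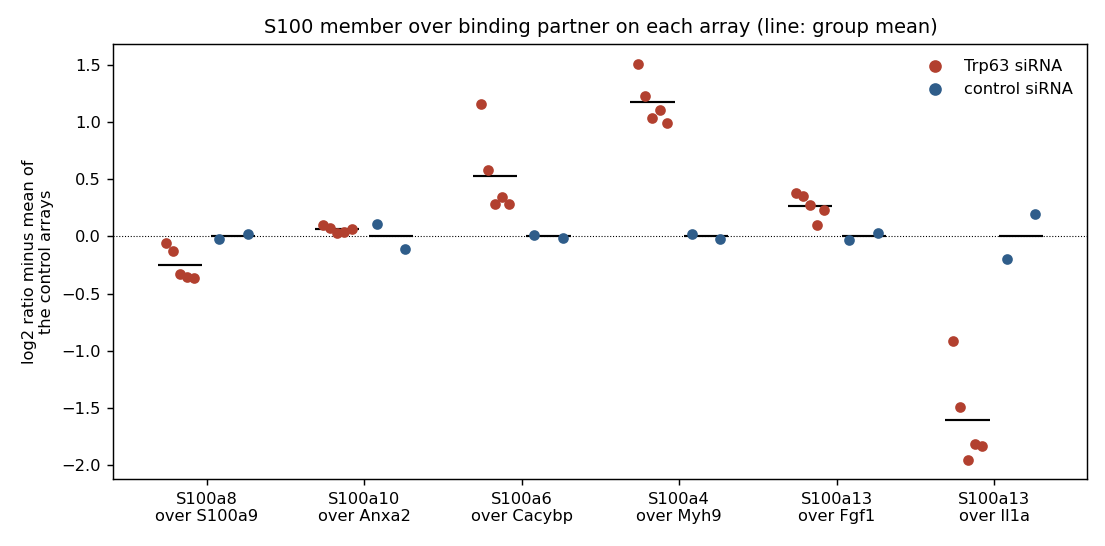
Log2 ratio of an S100 member to its binding partner on each array, minus the mean of the control arrays; points are arrays (Trp63 siRNA left of control siRNA in each pair) and lines are group means. S100a4 over Myh9 is 1.17 higher with Trp63 siRNA, and S100a10 over Anxa2 differs by 0.06.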

How the data were processed

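The deposited values are intensities, linear, 1 for each probe set on each of the Affymetrix arrays, which the authors had hybridised with biotinylated complementary RNA from Trizol-extracted total RNA, per the labels' protocols. Their probe summary, background correction and normalisation are not given in the sources used here. Among 22690 probe sets were 64 controls, which were not tested. Gene names came from the platform annotation, and gene order and promoters from RefSeq (GRCm38.p6). For a list, each gene's brightest probe set stood for it.

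Intensities became log2(intensity + 16) and were fitted with limma 3.58.1 in R 4.3.3 (lmFit, eBayes with trend). Every limma adjusted p comes from it, except where an alternative is named. Tested on simulated data of the same size (22626 probe sets), the fit found 35 of 50 changes of 0.5, 95 of 100 of 1 and 49 of 50 of 2 on the log2 scale, with 8 false calls. The simulated probe sets varied independently, without the melanocyte and RNA differences seen between the real arrays. Far fewer probe sets changed in it than passed in the real data, where 1771 rose and 1847 fell. The simulation therefore cannot give the number of false calls in the real data or the share of real changes found. No filter on dim probe sets or detection call was used.

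The members, the gene lists and the pairs were chosen with earlier results of these data known. Named from lists were up to 4 genes past the threshold, and from marker lists those past it and the brightest. Pdgfra, Dcn, Lum, Ptprc, Itgam, Lor, S100a5, S100b, Ager, Tlr4 and Bsg were named after their values were seen. The pairs S100a11 with Anxa1 and S100a6 with Anxa11 were not analysed here. Alternatives were other normalisations, a pseudocount of 1 or 64, removal of probe sets under the 25th or the 50th percentile, other eBayes settings, array weights, melanocyte and spike covariates and leaving out each array. Melanocyte subsets were added after seeing the data. Figures used matplotlib 3.10.9 in Python 3.11.15.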

Additional observations from a re-analysis of the deposited data

Results flagged for a closer look

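One silenced array stood apart for a member. On the brighter S100a10 probe set, Trp63 siRNA replicate 1 read 9102 against 8390 to 8596 on the other silenced arrays, and its gap to the next array was 0.711 of the range of the group, just above the critical value of 0.71 for 5 samples. Chance flags about 1 group in 20, and 20 groups were examined.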

How the results depend on the processing

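No paired analysis was possible because the groups share no replicate number. The rises of S100a4, S100a16 and S100a6 kept their direction under all 20 alternatives, with log2 differences of 1.33 to 1.49, 0.31 to 0.45 and 0.16 to 0.28. They passed under every alternative that kept both controls. Fits with 1 control cannot serve as tests, so passing is not counted for them here. The count of S100 probe sets that rose was 3 to 4 with an array left out 6 with the melanocyte covariate, 5 with the spike covariate and 7 within the arrays of low melanocyte level, and none fell under any alternative. S100a8 differed by -0.087 to 0.59 with an array left out. The first S100a1 probe set differed by 0.033 within the arrays of high melanocyte level. The brighter S100a10 probe set differed by 0.0051 with quantile normalisation, 1.0e-05 with median centring, 0.041 within the arrays of low melanocyte level and -0.10 to 0.066 with an array left out, and the ratio of S100a10 to Anxa2 by -0.047 to 0.17. With the filter at the 50th percentile 1 Trp63 probe set was left and it fell. Of other S100 and S100-fused genes 0 fell with that filter and 1 with any Trp63 siRNA array left out. Of receptors and partners, 1 rose with the filter at the 50th percentile, 4 with array weights and 2 to 4 with a Trp63 siRNA array left out. In the same list 0 fell with quantile normalisation, the 25th percentile filter or eBayes without trend. The falls were 3 with array weights, 2 with the melanocyte covariate and 0 to 4 with a Trp63 siRNA array left out. Of other differentiation complex genes 3 to 16 rose with an array left out. The filters test fewer probe sets and the subsets use fewer arrays; other causes were not tested. Each melanocyte subset, and each fit without a control, has 1 control array, assumed to vary like the other group. The signal over background of dim members is unknown.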
